A study of Mus musculus with 21 samples.

Results

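The semaphorins, plexins, Slits, Robos, netrins, Unc5 receptors, Eph receptors and ephrins were followed in embryonic mouse forebrain and kidney. A row of the deposited tables was a member if its symbol begins with Sema, Plxn, Slit, Robo, Ntn, Unc5, Epha, Ephb, Efna or Efnb followed by the number or letter of a family gene, which gave 66 of 23827 rows. The members were 20 semaphorins, 9 plexins, 3 Slits, 4 Robos, 4 netrins, 4 Unc5 receptors, 14 Eph receptors and 8 ephrins, and no symbol was repeated.

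Guidance cues are secreted or membrane-bound proteins that attract or repel growing axons, and endothelial cells read many of the same cues while vessels sprout. Semaphorins bind plexins, with neuropilins as coreceptors for the secreted class 3 semaphorins, whereas Slits bind Robos and netrins bind Dcc, neogenin and the Unc5 receptors. Ephrins are anchored in the membrane and bind Eph receptor tyrosine kinases on neighbouring cells, and ephrin B2 and EphB4 are the classical pair that marks arteries and veins.

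The measurements were RNA sequencing of 21 libraries in 7 groups of 3, all from E14.5 embryos that carried 1 copy of Gt(ROSA)26Sor-mCherry-Rpl10a, in which Cre excises a stop cassette and the CAGGS promoter then drives an mCherry-tagged ribosomal protein. Total RNA (the transcriptome) and RNA on tagged ribosomes (the translatome) came from forebrain and kidney of Sox2Cre+/- embryos, whose driver recombines throughout the embryo proper. Endothelial translatomes (brain EC and kidney EC) came from Cdh5CreERT2+/- embryos after tamoxifen was given by gavage, so they depend on endothelial recombination, and the Emx1-lineage translatome came from forebrains of Emx1Cre+/- embryos, whose driver acts in the dorsal telencephalon. The allele derives from 1 targeted clone of embryonic stem cells, forebrain dissections included part of the diencephalon, each forebrain library pooled 2 brains, and each kidney library pooled 4 kidneys for Sox2Cre and 6 for the endothelial groups.

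Between 21760652 and 79231692 reads were counted per library, and members held between 0.583% and 0.789% of them. All 10 endothelial markers, Cdh5 and Pecam1 among them, were higher in brain EC (log2 fold change 3.96 to 4.77 against the brain translatome) and in kidney EC (2.48 to 3.18 against the kidney translatome). All 6 dorsal telencephalic markers were higher in the Emx1-lineage and all 6 ventral ones lower, with log2 fold changes of 0.68 to 1.16 and of -2.49 to -1.04 against the brain translatome. Pericyte markers summed to between 20.4 and 24.7 RPKM in brain EC and between 97.1 and 109 RPKM in kidney EC, against 39.1 to 51.7 and 101.5 to 118 RPKM in the organ translatomes. In kidney EC, 3 of the 5 were lower (Pdgfrb, Rgs5 and Kcnj8, log2 fold change -2.30 to -1.19) and 2 higher, of which Cspg4 held 73.9 RPKM on average against 23.8 RPKM in the kidney translatome. Macrophage markers summed to 17.4 to 20.0 RPKM in brain EC and 5.22 to 5.40 RPKM in kidney EC. Libraries of brain EC, of kidney EC and of the Emx1-lineage were each sequenced in a lane of their own, so that lane and group cannot be told apart in any comparison that involves them. The brain and kidney translatomes did not share a lane either.

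Levels are given as RPKM, the reads of a gene scaled to transcript length and to the depth of the library, as mean ± SD over 3 libraries. Of the members, 62 reached a mean of 1 RPKM in at least 1 group and 48 in all 7. Plxnb3, Ntn5, Epha10 and Epha6 stayed under 1 RPKM in every group. A log2 fold change and its standard error (SE) come from edgeR's quasi-likelihood test of the read counts, and a member was called higher or lower at a Benjamini-Hochberg adjusted p below 0.001 over all rows tested. In bulk RNA of this kind, fewer cells of a type and less RNA per cell cannot be told apart.

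**Figure D1:**
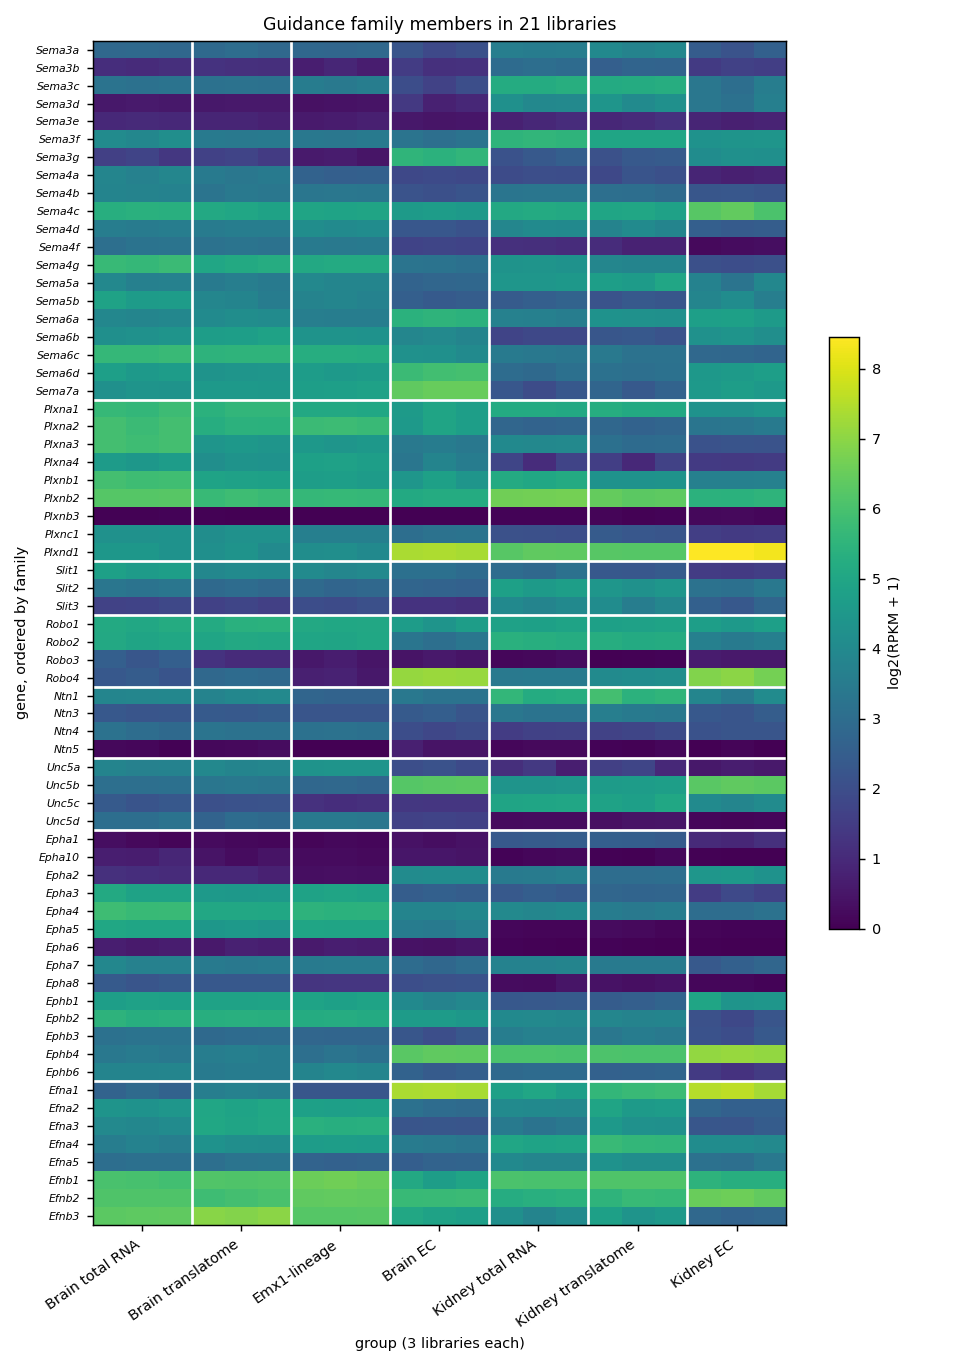
Level of each of the 66 members (rows, by family) in the 21 libraries (columns, 3 per group), as log2(RPKM + 1). The 3 libraries of a group resemble each other, and Plxnd1, Robo4, Unc5b, Ephb4 and Efna1 stand out in both endothelial groups.

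The first question was which guidance genes endothelial cells of the forebrain translate more or less than the forebrain as a whole. In brain EC, 12 of 66 members were higher than in the brain translatome and 35 were lower, against 24.8% and 21.4% of all rows tested. The median log2 fold change was -0.50 over the members and -0.01 over all rows. Among genes with a mean of at least 1 RPKM in either group, 11 of 60 members were higher and 35 lower. Of 13218 such rows, 32.9% were higher and 29.4% lower, and the median was -0.57 over these members against 0.02. In kidney EC, 18 members were higher than in the kidney translatome and 34 lower, against 16.7% and 15.0% of all rows, and the median was -0.65 against -0.04 over all rows. With the same limit of 1 RPKM, 17 of 57 members were higher and 32 lower, against 23.9% and 20.4% of 12881 rows. The comparisons of the 2 organs share no library. In both organs, 10 members were higher and 25 were lower, against 12.3% and 8.17% of the rows tested in both. With total counts as the scale in place of TMM (edgeR's composition factors), the median of all rows was -0.30 in brain and -0.41 in kidney. On this scale, 11 members were higher and 43 lower in brain EC and 17 and 40 in kidney EC. Of all rows, 3397 were then higher and 6002 lower in brain EC, against 4740 and 4084 with TMM. The kidney EC counts of all rows were 1564 and 5655, against 3163 and 2837 with TMM. The calls of all rows thus also shifted toward lower.

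In the endothelial groups, 1 member led most families. Robo4 made up 80.3% to 83.8% of the summed RPKM of the 4 Robos in brain EC and 72.7% to 79.2% in kidney EC, whereas Robo1 and Robo2 led in the organs. Unc5b made up 91.5% to 92.5% of the Unc5 sum in brain EC and 82.7% to 85.6% in kidney EC, in place of Unc5a in the forebrain and Unc5c in the kidney. Plxnd1 made up 52.5% to 56.6% of the plexin sum in brain EC and 77.1% to 80.1% in kidney EC, in place of Plxnb2. Ephb4 held 42.6% to 46.0% of the Eph receptor sum in brain EC, where Ephb2 had led in the forebrain, and 64.5% to 68.7% in kidney EC, where it also led in the whole kidney. Efna1 held 53.7% to 56.5% of the ephrin sum in brain EC and 49.6% to 53.4% in kidney EC, in place of Efnb3 and Efnb1. Semaphorins were the most evenly spread, and their leading member was Sema7a in brain EC (25.2% to 26.6%) and Sema4c in kidney EC (24.6% to 30.2%). Slits and netrins kept the leading member of their organ, Slit1 or Slit2 and Ntn1.

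**Figure D2:**
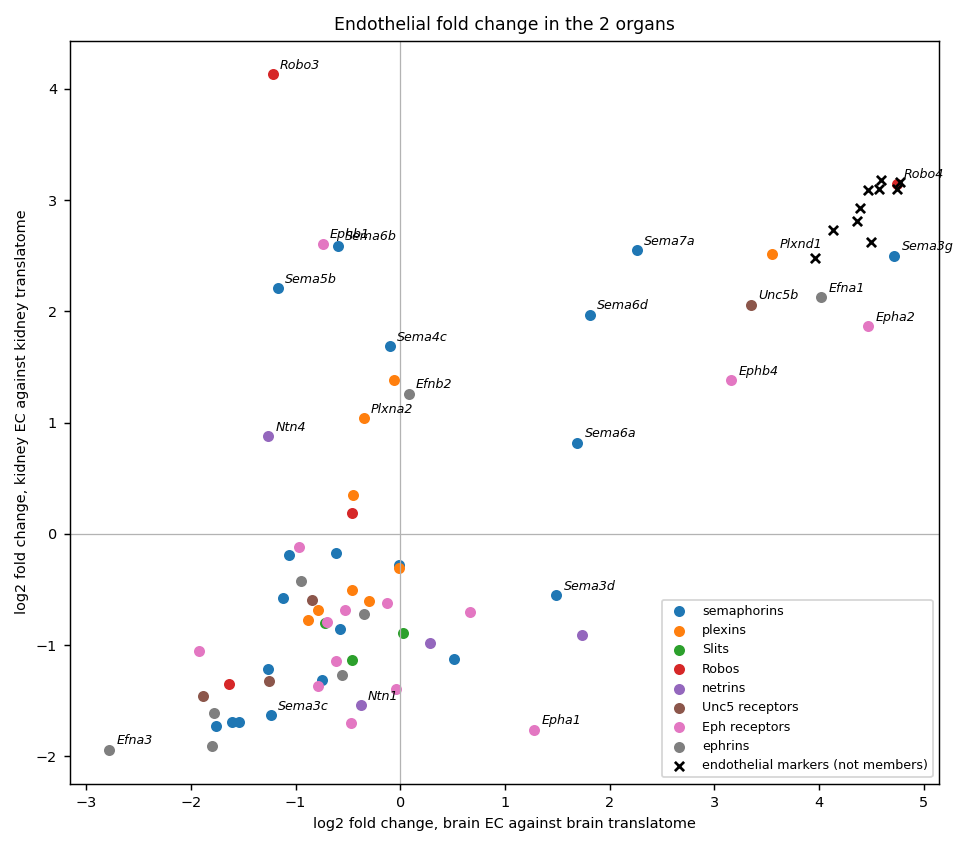
Log2 fold change of each member in brain EC against the brain translatome (horizontal axis) and in kidney EC against the kidney translatome (vertical axis), coloured by family, with the 10 endothelial markers as crosses. Robo4 lies among the markers at 4.74 and 3.15, while Robo3, Ephb1, Sema6b and Sema5b lie at the upper left, below 0 in brain and above 0 in kidney.

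Promoters of endothelial members are shown because ETS factors, which bind around GGAA cores, are known regulators of endothelial genes. A window from 250 bases before to 50 after the RefSeq start (GRCm38.p6) was matched for 57 of 66 members. The letters GGAAGT, on either strand, were looked for in its first 250 bases only. They were in 12 of these 57 members (21.1%) and in 22.2% of 27018 genes. Of the 9 matched members higher in both endothelial groups, Epha2, Ephb4 and Sema6d held a match. Each match is a description of letters, not of a bound site. The letters TGGGAA, the core bound by the Notch effector RBPJ, were in 12 of 57 members (21.1%) and in 24.1% of genes, and among the 9 in Sema6d. The 2 sets of letters share GGAA, so a match of one can overlap the other. The stretches before the first annotated exon of Robo4, Ephb4 and Epha2 follow, 5′ to 3′ on the strand of the gene, all on the plus strand, with a GGAAGT match, which reads ACTTCC on this strand, in capitals. They lie at chr9:37401722-37401896, chr5:137349859-137350108 and chr4:141300971-141301220.
Robo4: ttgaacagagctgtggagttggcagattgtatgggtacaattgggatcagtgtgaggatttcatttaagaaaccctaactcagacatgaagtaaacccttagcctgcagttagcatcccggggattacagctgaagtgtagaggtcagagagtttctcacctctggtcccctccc
Ephb4: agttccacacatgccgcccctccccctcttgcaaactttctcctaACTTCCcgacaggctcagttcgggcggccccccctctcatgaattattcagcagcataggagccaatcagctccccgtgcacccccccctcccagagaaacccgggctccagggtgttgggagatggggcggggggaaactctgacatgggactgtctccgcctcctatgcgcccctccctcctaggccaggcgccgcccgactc
Epha2: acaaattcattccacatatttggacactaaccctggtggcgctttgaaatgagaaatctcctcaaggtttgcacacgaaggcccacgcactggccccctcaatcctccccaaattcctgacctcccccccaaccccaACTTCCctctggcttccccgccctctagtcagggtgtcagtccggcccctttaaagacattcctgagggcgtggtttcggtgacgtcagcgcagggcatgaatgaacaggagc
The Robo4 stretch holds neither set of letters, and the Ephb4 and Epha2 stretches hold 1 GGAAGT match each.

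Among the receptors, Robo4, the Robo family member known from endothelium, had the largest rise in brain EC. Robo4 (GRCm38 chromosome 9, 37401897 to 37415115, plus strand) read 138.6, 145.2 and 141.0 RPKM in brain EC against 6.23, 6.76 and 6.43 RPKM in the brain translatome, a log2 fold change of 4.74 (SE 0.079, adjusted p = 4e-13). In kidney EC it read 115, 125 and 102 RPKM against 15.6, 16.3 and 17.1 RPKM, a log2 fold change of 3.15 (SE 0.082, adjusted p = 4.4e-10). The groups did not overlap in either organ, and both values lay within the range of the 10 endothelial markers. The Emx1-lineage held 0.631 ± 0.16 RPKM of Robo4, the lowest mean of the 7 groups. Robo3, lower in brain EC and higher in kidney EC, is described with the members of opposite direction. Robo1 and Robo2, receptors of commissural and cortical axons, were lower in brain EC by a log2 fold change of -0.46 (adjusted p = 0.00079) and -1.64 (adjusted p = 7.1e-10). In kidney EC, Robo2 was lower (-1.35, SE 0.077, adjusted p = 9.5e-08) and Robo1 was not called (0.19, SE 0.076, adjusted p = 0.055).

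Plxnd1, the plexin that receives Sema3e in endothelial cells, had the highest level of all members in kidney EC and, together with Efna1, in brain EC. It read 166, 170.2 and 164 RPKM in brain EC against 17.6, 19.2 and 15.5 RPKM in the brain translatome, a log2 fold change of 3.55 (SE 0.094, adjusted p = 2.4e-12). In kidney EC it read 345, 351 and 318 RPKM against 76.1, 74.6 and 74.6 RPKM in the kidney translatome (2.52, SE 0.079, adjusted p = 1e-09). It was the only plexin called higher in brain EC, where Plxna1, Plxna3 and Plxnc1 were lower. In kidney EC, Plxna2 was higher as well (1.04, SE 0.072, adjusted p = 4.2e-07), and 5 plexins were lower. The ligand Sema3e itself was low, with a mean of 0.431 ± 0.0415 RPKM in brain EC and 0.765 ± 0.0934 RPKM in kidney EC, and was not called in either comparison.

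Unc5b, a netrin receptor of vessels, was the single Unc5 receptor higher in endothelium. It read 73.2, 77.5 and 78.6 RPKM in brain EC and 8.97, 9.45 and 9.07 RPKM in the brain translatome (3.35, SE 0.073, adjusted p = 7.1e-13). In kidney EC it read 77.3, 83.9 and 79.6 RPKM against 23.9, 24.3 and 25.5 RPKM (2.06, SE 0.064, adjusted p = 1e-09), again without overlap. The remaining Unc5 receptors were lower in brain EC, by log2 fold changes of -1.88 for Unc5a, -0.84 for Unc5c and -1.25 for Unc5d. Of the netrins, their ligands, none was higher in brain EC. Ntn1, the axon attractant of the floor plate, was lower in brain EC (-0.38, SE 0.079, adjusted p = 0.00096) and in kidney EC (-1.54, SE 0.17, adjusted p = 1.6e-05).

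Of the 14 Eph receptors, Ephb4 and Epha2 were higher in both endothelial groups. Ephb4, the venous receptor of ephrin B2, read 76.7, 83.8 and 80.4 RPKM in brain EC against 10.9, 11.6 and 10.6 RPKM (3.16, SE 0.074, adjusted p = 9.6e-13) and 135, 141 and 133 RPKM in kidney EC against 67.9, 66.2 and 66.4 RPKM (1.38, SE 0.061, adjusted p = 1.3e-08). Epha2, a receptor of ephrin A1, read 15.8, 16.2 and 16.5 RPKM in brain EC against 0.974, 0.982 and 0.7 RPKM (4.47, SE 0.11, adjusted p = 1.7e-12). In kidney EC it read 21, 21.7 and 18.9 RPKM against 7.13, 7.14 and 7.28 RPKM (1.87, SE 0.069, adjusted p = 3.4e-09). No library of an endothelial group overlapped those of its organ for either receptor. In brain EC, 7 Eph receptors were lower, with Epha3 falling furthest (-1.92, SE 0.07, adjusted p = 4.5e-11), and 6 were lower in kidney EC. Epha1 was higher in brain EC (1.28, SE 0.27, adjusted p = 0.00096), but at 0.302 ± 0.0588 RPKM, and it overlaps an exon of Zyx on the opposite strand. The library kit does not mark strand, so reads of these overlapping genes cannot be told apart.

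Among the ephrins, Efna1, the ligand of EphA2, was the one higher in both endothelial groups. It read 167, 172 and 163 RPKM in brain EC against 11.3, 12.2 and 11.2 RPKM (4.02, SE 0.073, adjusted p = 4.8e-13), and 183, 197 and 160.2 RPKM in kidney EC against 47, 51.7 and 55 RPKM (2.13, SE 0.076, adjusted p = 2.8e-09). Efnb2, the arterial ephrin, behaved otherwise. It read 50.7, 52.2 and 53.3 RPKM in brain EC and 55.8, 60.1 and 64.3 RPKM in the brain translatome, and was not called (0.08, SE 0.072, adjusted p = 0.34). Its RPKM in brain EC lay below that of the brain translatome in every library, and the fitted value ranged from -0.21 to 0.14 over the alternatives. RPKM is scaled to total reads and the fit by TMM, so that a ratio of RPKM and a fitted value can differ in sign. In kidney EC, Efnb2 read 91.6, 95.1 and 84.2 RPKM against 43.8, 50.6 and 50 RPKM, without overlap, and was higher (1.26, SE 0.073, adjusted p = 1e-07). Efna2, Efna3, Efna4, Efnb1 and Efnb3 were lower in both endothelial groups, and Efna3 had the largest fall of any member in both (-2.78 in brain and -1.94 in kidney).

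**Figure D3:**
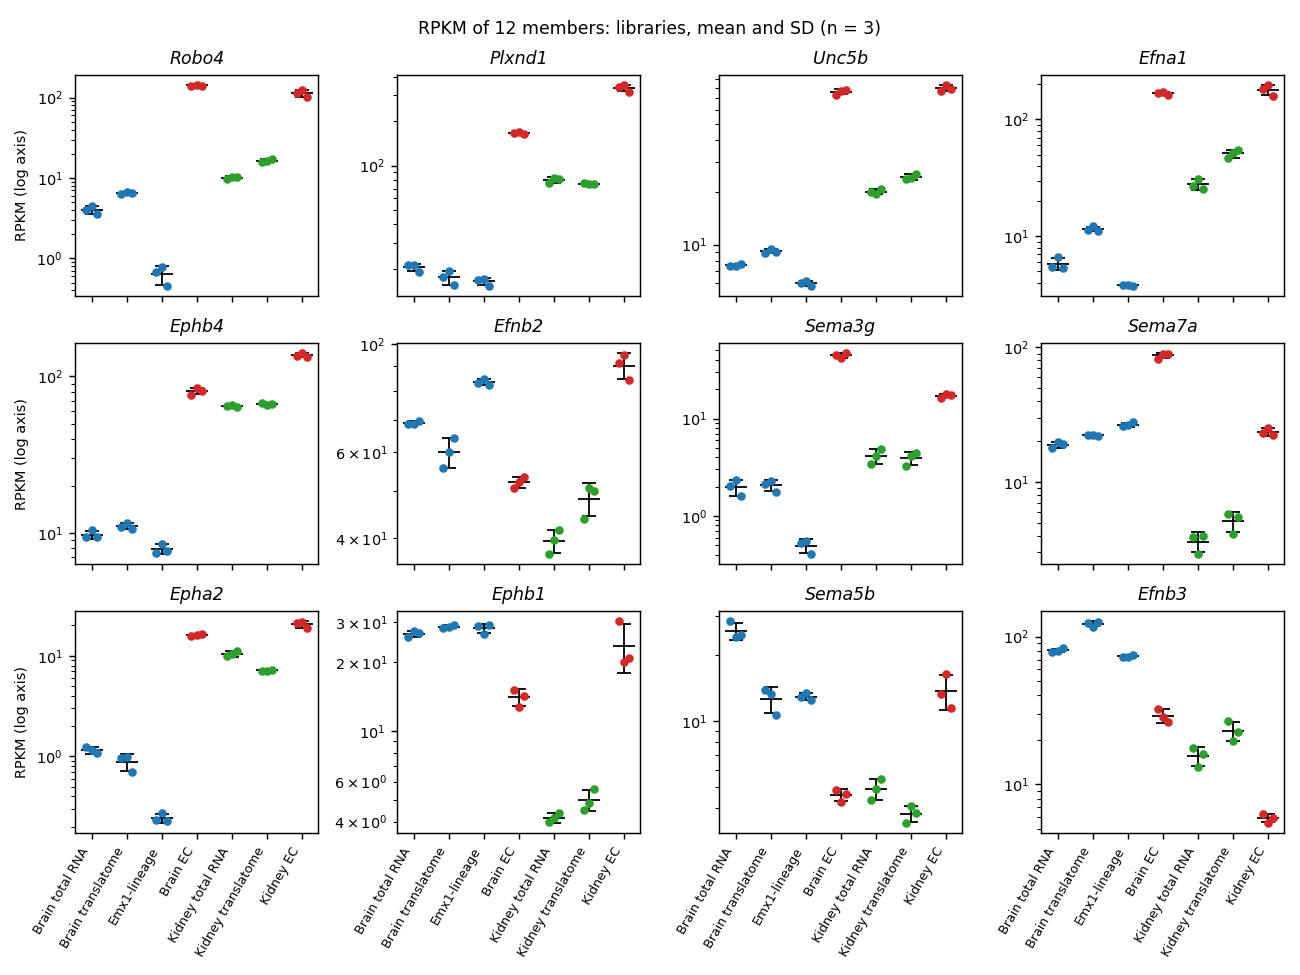
RPKM of 12 members in the 7 groups on a log axis, with each library as a point and the mean ± SD (n = 3) as bars. Robo4, Plxnd1, Unc5b, Efna1, Ephb4 and Epha2 are highest in the endothelial groups, Efnb2 is raised in kidney EC but not in brain EC, and Ephb1 and Sema5b move in opposite directions in the 2 organs.

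Semaphorins were divided. Sema3g, a secreted class 3 semaphorin, rose in brain EC almost as far as Robo4, at 45.2, 42 and 46.8 RPKM against 2.12, 2.29 and 1.78 RPKM (4.72, SE 0.096, adjusted p = 5.8e-13). In kidney EC it read 16.4, 17.9 and 17.4 RPKM against 3.26, 4.09 and 4.38 RPKM (2.50, SE 0.1, adjusted p = 7.8e-09). The transmembrane Sema6a and Sema6d and the membrane-anchored Sema7a were also higher in both organs, and none of these 4 overlapped between groups. Sema7a was the semaphorin of highest mean in brain EC, at 87.1 ± 3.82 RPKM against 22.2 ± 0.281 RPKM in the brain translatome (2.26, SE 0.067, adjusted p = 7.2e-12), and it was higher in kidney EC as well (2.55, SE 0.12, adjusted p = 1.6e-08). Sema4c led in kidney EC at 75.3 ± 9.79 RPKM (1.69, SE 0.088, adjusted p = 4.7e-08) and was not called in brain EC (-0.10, SE 0.072, adjusted p = 0.25). In brain EC, 11 semaphorins were lower, among them Sema4g (-1.76), Sema4a (-1.61) and Sema4f (-1.54), and 9 in kidney EC. Sema3d, a secreted semaphorin, was higher in brain EC (1.49, SE 0.25, adjusted p = 0.00017) from a low level of 0.475 ± 0.0287 RPKM, and without brain translatome replicate 1 it no longer passed the threshold (log2 fold change 1.44). Slits were not called higher anywhere in endothelium: 1 of 3 was lower in brain EC and 3 of 3 in kidney EC.

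Members that were lower were set beside genes of cells that the endothelial driver should not mark. In brain EC, 17 neuronal, dorsal and ventral telencephalic markers kept between 10.4% (Neurod6) and 37.7% (Lhx6) of their RPKM in the brain translatome, with a median of 21.0%. The 35 lower members kept between 11.9% and 63.1%, and 16 of them were at or under 37.7%. Only Efna3 was at or under the markers' median. The other 19 were above 37.7%, including Robo1, Ephb1, Epha5, Slit1 and Plxna1. In kidney EC, 12 nephron progenitor and ureteric markers kept between 7.93% (Cited1) and 60.6% (Krt8), with a median of 16.8%. The 34 lower members kept between 20.3% and 63.0%, and none was at or under that median. At or under the highest value were 33 of them. That value was set by 1 marker and lay near the top of the members' range. It therefore cannot separate these members, and the count cannot be compared with the 16 in brain. How much of the remaining signal of these members came from other cells was not tested.

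The number of members lower in brain EC and higher in kidney EC was 5, and the difference between organs was tested directly as an interaction. Ephb1, a receptor of B ephrins, read 15.1, 12.7 and 14.3 RPKM in brain EC against 28.3, 28.5 and 29.2 RPKM, and 30.3, 20 and 20.9 RPKM in kidney EC against 4.52, 4.85 and 5.56 RPKM. The log2 fold changes, -0.74 for forebrain and 2.61 for kidney, gave a difference of -3.33 (SE 0.19, adjusted p = 4e-10). Sema5b, a transmembrane semaphorin, differed by -3.34 (SE 0.17, adjusted p = 1.1e-10), and Sema6b by -3.16 (SE 0.11, adjusted p = 1.8e-12). All 3 moved in opposite directions in the organs, without overlap in either. Sema5b read 13.3, 16.3 and 11.4 RPKM in kidney EC against 3.45, 4.11 and 3.81 RPKM, and Sema6b read 18.4, 19.6 and 17 RPKM against 3.82, 3.98 and 3.51 RPKM. Ntn4, a netrin of basement membranes, had log2 fold changes of -1.26 for forebrain and 0.88 for kidney, at 3.58 ± 0.178 RPKM in kidney EC. Of 7 podocyte and nephron genes, 4 were higher in kidney EC than in the kidney translatome, with log2 fold changes of up to 1.82. Nphs1 (1.63) and Synpo (1.33) were among them. The other 3, Wt1 (-1.38), Lhx1 (-1.44) and Pax8 (-2.03), were lower. Of 5 neuronal markers, Stmn2 was higher (2.05), Dcx lower (-1.91) and 3 were not called. Of 5 ventral telencephalic markers tested, Lhx6 was higher (2.71) and 4 were not called. None of 5 peripheral nerve and glia markers was called. The part of such cells in the values of Ephb1, Sema5b and Sema6b was not tested.

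Robo3, the last of these members, was low in kidney. It read 0.548, 0.498 and 0.484 RPKM in kidney EC and 0.0173, 0.0448 and 0.0488 RPKM in the kidney translatome, with a log2 fold change of 4.13 (SE 0.33, adjusted p = 1.3e-06). Robo3 lies on the minus strand of chromosome 9 from 37415669 to 37433246, with 553 bases between its annotated end and that of Robo4, toward which it points. Its RPKM was between 0.399% and 0.478% of that of Robo4 in kidney EC and between 0.263% and 0.331% in brain EC, against 0.111% to 0.285% in the kidney translatome and 15.5% to 22.0% in the brain translatome. Whether reads that run past the end of Robo4 add to Robo3 was not tested.

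Over all members, the interaction called 17 higher in brain and 12 lower, against 16.5% and 8.60% of all rows. This difference includes that between the organ references. In the brain against the kidney translatome, 8 of the 10 endothelial markers were lower and none higher, with a median log2 fold change of -1.19. Between brain EC and kidney EC their median was 0.27. In the interaction, all 10 were called higher too, with differences of 1.41 to 1.90, and the median over all rows was 0.15. Robo4 (1.61) and Ephb4 (1.80), which rose in both organs, lay within the range of the markers, and Unc5b (1.31) and Plxnd1 (1.05) were below it. Efna1 (1.92), which also rose in both, was just above that range. Sema3g (2.25, SE 0.14, adjusted p = 1.1e-09) and Epha2 (2.63, SE 0.13, adjusted p = 9.2e-11) were further above it. Sema7a (-0.27, adjusted p = 0.11) and Sema6d (-0.14, adjusted p = 0.32) rose in both organs and did not pass the test of a difference. Efnb2 (-1.15, SE 0.1, adjusted p = 1.2e-07), Sema4c (-1.77, SE 0.12, adjusted p = 3.1e-09) and Plxna2 (-1.36, SE 0.13, adjusted p = 2.2e-07) were called lower in brain, that is, the kidney had the larger endothelial fold change.

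The direct comparison of brain EC with kidney EC asked how the 2 endothelial translatomes differ in their guidance genes. In brain EC, 26 members were higher and 16 lower than in kidney EC, against 20.1% and 16.9% of all rows. Among genes with a mean of at least 1 RPKM in either group, 23 of 60 members were higher and 15 lower. Of 13023 such rows, 25.4% were higher and 22.4% lower, so the lower share of these members, 25.0%, lay near that of the rows. The replicate numbers paired these libraries, and the values in this paragraph come from the fit without a block for that number. With the block, 25 members were higher and 21 lower, and Robo2, not called without it, was lower. The share of all rows called with the block is not given here. Epha5, a receptor of A ephrins on cortical neurons, read 10.6, 9.84 and 11.8 RPKM in brain EC against 0.0868, 0.0588 and 0.0531 RPKM in kidney EC (7.36, SE 0.15, adjusted p = 5.2e-11). Among members that reached 1 RPKM, Epha8 (5.20, SE 0.17, adjusted p = 1.6e-09), Unc5d (4.40, SE 0.13, adjusted p = 5.3e-10) and Sema4f (3.49, SE 0.16, adjusted p = 1.5e-08) followed. None of these 4 was higher in brain EC than in the brain translatome, and all 5 neuronal markers were higher in brain EC than in kidney EC (log2 fold change 2.67 to 14.21). The part of neuronal RNA in these 4 was not tested. Of members that were higher in both endothelial groups than in their organs, Sema7a (1.93, SE 0.071, adjusted p = 3.1e-09), Sema3g (1.42, SE 0.069, adjusted p = 2.7e-08), Sema6d (1.32, SE 0.088, adjusted p = 3.2e-07) and Sema6a (0.78, SE 0.07, adjusted p = 3.3e-06) were higher in brain EC, and Plxnd1 (-0.97, SE 0.075, adjusted p = 9.8e-07) and Ephb4 (-0.72, SE 0.069, adjusted p = 5.5e-06) in kidney EC. Robo4, Unc5b, Efna1 and Epha2 did not pass the threshold, with values of 0.36, -0.03, -0.07 and -0.30. Unc5c, a netrin receptor, had the largest difference toward kidney EC, at 1.59, 1.51 and 1.52 RPKM in brain EC against 15.6, 13.4 and 16 RPKM (-3.24, SE 0.092, adjusted p = 4.5e-10). Among members that reached 1 RPKM, Sema3d came next, with 1.62, 0.699 and 0.932 RPKM against 9.23, 7.84 and 11.5 RPKM (-3.09, SE 0.26, adjusted p = 2.3e-06), and neither overlapped between groups.

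The whole organs were compared through their translatomes. In the brain translatome, 34 members were higher and 23 lower than in the kidney translatome, against 27.2% and 26.2% of all rows. At a mean of 1 RPKM or more in either group, 32 of 62 members were higher and 23 lower, against 35.3% and 33.2% of 13782 rows. The lower share of these members, 37.1%, lay near that of the rows. Eph receptors leaned to the brain, with 9 of 14 higher and 4 lower and a median log2 fold change of 1.80. Epha5 (7.36, SE 0.14, adjusted p = 2.2e-14) and Unc5d (4.43, SE 0.14, adjusted p = 2.6e-12) had 0.147 ± 0.0617 and 0.337 ± 0.0608 RPKM in kidney. Plxna4, a partner of neuropilin for class 3 semaphorins on axons, was higher by 3.62 (SE 0.2, adjusted p = 1.1e-09), and Plxna2 by 3.00 (SE 0.07, adjusted p = 1.9e-13). In the kidney, Sema3d (-5.03, SE 0.11, adjusted p = 1.3e-13), Epha1 (-4.74, SE 0.17, adjusted p = 1.6e-11), Unc5c (-2.89, SE 0.073, adjusted p = 4e-13), Epha2 (-2.81, SE 0.13, adjusted p = 1.7e-10) and Slit3 (-2.45, SE 0.13, adjusted p = 6.9e-10) were the higher ones with the largest differences. Of the 10 endothelial markers, 8 were also higher in the kidney (median -1.19 over the 10). The part of endothelial cells in these values was not tested. Slit1 was higher in brain (2.05) and Slit2 (-1.41) in kidney, where it read 20.9, 18.3 and 20.7 RPKM. Ephrin B3, a midline barrier to corticospinal axons, was the ephrin of highest mean in the brain translatome at 122 ± 4.81 RPKM, against 23 ± 3.5 RPKM in kidney (2.61, SE 0.094, adjusted p = 1.4e-11).

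Use in the dorsal telencephalon was read from the Emx1-lineage. In the Emx1-lineage, 19 members were higher and 18 lower than in the brain translatome, against 9.20% and 12.8% of all rows. At a mean of 1 RPKM or more in either group, 19 of 58 members were higher and 17 lower, against 13.4% and 14.9% of 12752 rows. The log2 fold changes of the members ranged from -3.32 (Robo4) to 0.65 (Unc5d). This lineage is an abundant part of the forebrain it is compared with, which bounds the size of a rise but not of a fall. The 6 dorsal telencephalic markers themselves rose by 0.68 to 1.16. Sema4d (0.62, SE 0.052, adjusted p = 2e-07), Plxna4 (0.61, SE 0.052, adjusted p = 2e-07), Efna4 (0.56, SE 0.06, adjusted p = 2.7e-06) and Epha5 (0.54, SE 0.042, adjusted p = 8.4e-08) were among the higher ones. Efnb2 read 83.3, 84.7 and 82.3 RPKM in the Emx1-lineage against 55.8, 60.1 and 64.3 RPKM in the brain translatome (0.53, SE 0.052, adjusted p = 1.1e-06), without overlap, and its highest mean among the brain groups was in this lineage.

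Of the 18 members lower in the Emx1-lineage, 7 were higher in brain EC and 11 were not. Robo4 (-3.32, SE 0.13, adjusted p = 4.2e-11), Sema3g (-2.01, SE 0.14, adjusted p = 3.5e-08), Epha2 (-1.82, SE 0.17, adjusted p = 7.8e-07), Efna1 (-1.55, SE 0.081, adjusted p = 1.1e-09), Unc5b (-0.56, SE 0.053, adjusted p = 7e-07), Sema6a (-0.49, SE 0.046, adjusted p = 7e-07) and Ephb4 (-0.43, SE 0.061, adjusted p = 4.5e-05) were the 7, and the 10 endothelial markers had log2 fold changes of -4.47 to -2.25. Sema7a (0.32, SE 0.046, adjusted p = 5.1e-05) and Sema6d (0.29, SE 0.047, adjusted p = 0.00015) were higher in both. Plxnd1, at 16.4 ± 0.915 RPKM in the lineage and 17.4 ± 1.86 RPKM in the forebrain, was not called (-0.04, SE 0.066, adjusted p = 0.69). Both comparisons use the same brain translatome libraries. Of the 11, Unc5c (-1.37, SE 0.072, adjusted p = 1.1e-09), Epha8 (-1.38, SE 0.075, adjusted p = 1.5e-09), Ntn1 (-1.25, SE 0.062, adjusted p = 5.7e-10) and Robo3 (-1.25, SE 0.16, adjusted p = 1.6e-05) had the largest falls. The 6 ventral markers moved with them, and the part of ventral cells in these values was not tested. Ntn1 read 5.76, 5.51 and 5.52 RPKM in the lineage and 12.7, 14 and 14.8 RPKM in the forebrain, and the libraries did not overlap.

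**Figure D4:**
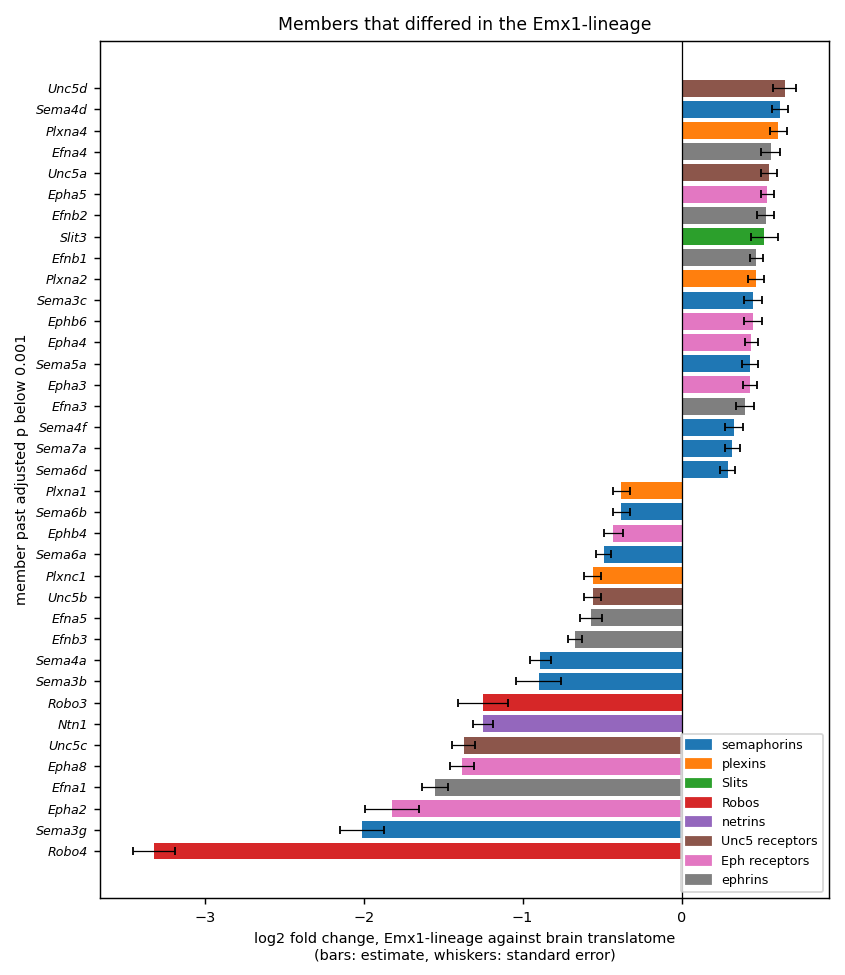
Log2 fold change in the Emx1-lineage against the brain translatome for the 37 members past the threshold, with the standard error as whiskers and the family as colour. The 19 higher members lie between 0.29 and 0.65, and the 18 lower ones reach -3.32 for Robo4.

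Total and ribosome-bound RNA were compared within each organ. In brain, 10 members were higher in the translatome than in the transcriptome and 20 were lower, against 18.6% and 18.5% of all rows. In kidney, 8 were higher and 8 lower, against 14.9% and 15.8% of all rows. Of rows with a mean of at least 1 RPKM in either group, 27.3% were higher and 25.2% lower in brain, and 21.9% and 22.6% in kidney. A block for the replicate number changed the counts of members to 22 and 18 in kidney and to 10 and 23 in brain. The shares of all rows called with the block, and in the lane counts that follow, are not given here, so these counts lack a background. Libraries of both kinds shared a lane only in part. Within the shared lane, with 3 libraries against 1 and the lone library assumed to vary like the others, 7 members were higher and 15 lower in brain, and 8 higher and 4 lower in kidney. Ephrins were among the higher ones in both organs, with 5 of 8 in brain and 4 of 8 in kidney (7 of 8 with the block) and none lower. Efna3 read 31.6, 29.6 and 32.5 RPKM in the brain translatome against 14.8, 14 and 15.8 RPKM in total RNA (1.10, SE 0.078, adjusted p = 2.9e-08), and 22.4, 18.5 and 17.9 RPKM against 10.1, 8.31 and 9.55 RPKM in kidney (1.08, SE 0.11, adjusted p = 1.6e-05). Efna1 rose by 1.02 (SE 0.096, adjusted p = 4.9e-07) in brain and by 0.89 (SE 0.061, adjusted p = 8.8e-07) in kidney, and Robo4 by 0.71 (SE 0.089, adjusted p = 8.8e-06) and by 0.70 (SE 0.057, adjusted p = 3e-06). Without the block, no plexin was higher in the translatome of either organ, and 5 of 9 were lower in brain and 2 in kidney. With it, Plxnc1 was higher in kidney (log2 fold change 0.33, adjusted p = 2.4e-08, edgeR's test), and 3 plexins were lower there. Plxna3 had the largest fall among plexins, from 60.2, 55.4 and 60.2 RPKM in brain total RNA to 20.5, 21.7 and 20.5 RPKM in the translatome (-1.46, SE 0.058, adjusted p = 1.8e-10), and it also fell in kidney (-1.04, SE 0.055, adjusted p = 1.9e-07). Plxnb1 was lower in both organs (-1.02 and -0.84), as was Slit1 (-0.76 and -0.76), and Sema5b was lower in the brain translatome, at 12.6 ± 1.65 RPKM against 25.8 ± 2.31 RPKM. None of these groups overlapped, although Slit1 in kidney did not pass the threshold within the shared lane. In all, 6 of 14 Eph receptors were lower in the brain translatome and none higher, with Epha10 (-1.17) and Epha4 (-0.70) falling furthest. Robo3 had the largest fall of all in brain, from 4.93, 3.82 and 4.85 RPKM to 1.37, 1.05 and 1.05 RPKM (-1.93, SE 0.13, adjusted p = 1.5e-08).

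**Figure D5:**
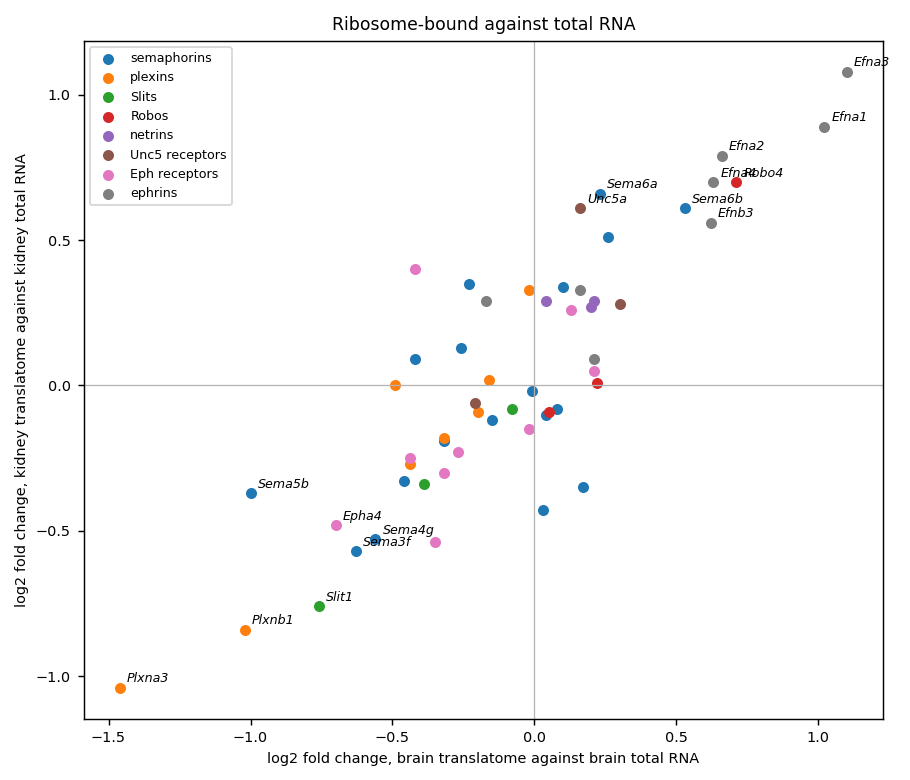
Log2 fold change of the translatome against total RNA in brain (horizontal axis) and kidney (vertical axis) for the 55 members with a mean of at least 1 RPKM in total RNA of both organs, coloured by family. Efna3 and Efna1 lie at the upper right and Plxna3 and Plxnb1 at the lower left.

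Genes that act with these families were read from lists of coreceptors and effectors, beside the 24.8% higher and 21.4% lower of all rows in brain EC and the 16.7% and 15.0% in kidney EC. Of 10 semaphorin coreceptors and receptors, 3 were higher and 4 lower in brain EC, and 2 higher and 1 lower in kidney EC. Both neuropilins were higher in each organ, Nrp1 by 1.71 (brain) and 0.93 (kidney) on the log2 scale, and Nrp2 by 0.59 and 2.25. The difference between organs was 0.82 for Nrp1 and -1.63 for Nrp2, both past the threshold. All 4 netrin receptors outside the Unc5 family (Dcc, Neo1, Dscam and Dscaml1) were lower in brain EC, Dcc by -1.33, and 2 of them in kidney EC. Of 10 netrin effectors, 7 were higher and 1 lower in brain EC, and 7 were higher and none lower in kidney EC. Ablim1, an actin-binding protein, led in brain at 3.08. Of 11 Eph and ephrin effectors, 7 were higher and 1 lower in each organ, with Rgs3, which acts downstream of B ephrins, at 3.13 in brain and 2.22 in kidney. Of 15 plexin effectors, 4 were higher and 3 lower in brain EC and 6 and 2 in kidney EC, with the kinase Fes at 3.31 and 1.80. Of 11 Robo effectors, 3 were higher and 5 lower in each organ. The higher shares in brain EC, 26.7% of the plexin effectors and 27.3% of the Robo effectors, lay near that of all rows. So did 30.0% each of the semaphorin coreceptors and receptors and of the other guidance ligands. In kidney EC the higher shares of these lists, in the same order, were 40.0%, 27.3%, 20.0% and 30.0%, against 16.7% of all rows. Among 10 other guidance ligands, 3 were higher and 5 lower in brain EC, where Reln, the extracellular protein of Cajal-Retzius cells, rose by 2.60, and 3 were higher and 3 lower in kidney EC.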

How the data were processed

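Polyadenylated RNA was sequenced by the authors after TruSeq v2 library preparation, which does not mark strand. Reads were mapped to the mouse genome (GRCm38, mm10) with RUM and counted on RefSeq genes with the rpkmforgenes script. The deposited tables give, for each of 23827 rows, the read count and the RPKM, which the authors scaled to transcript length and reads. Libraries held 21760652 to 79231692 counted reads, so counting error is small except for members under 1 RPKM. The 3 replicates of a group are biological samples per the study's methods, and p-values measure the spread between them.

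The deposited counts were tested with edgeR 4.0.16 (R 4.3.3, TMM, glmQLFit and glmQLFTest) on the rows with at least 1 count in the libraries compared. Benjamini-Hochberg adjustment ran over all rows, with a threshold of 0.001. Standard errors were derived from the F statistic and the log2 estimate. The organ difference is the interaction over 12 libraries. RPKM served for levels, family shares, percentages kept, statements of overlap and the choice of named members, and not for tests. It carries no TMM factor, so these percentages are not on the scale of the fits. Members at or above 1 RPKM were called expressed. The pipeline was tested on simulated counts. Alternatives were DESeq2 1.42.0, its size factors in edgeR, total counts, 10 counts in 3 libraries, a fit of all 21 libraries, the replicate block, each library left out and a threshold of 0.05.

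Replicate numbers paired the samples in 3 comparisons, where deviations of same-numbered libraries correlated in all 3 pairs (r of 0.386 to 0.617 for brain total against ribosome-bound RNA, 0.552 to 0.622 for kidney, 0.173 to 0.347 for brain EC against kidney EC). In the others the number was shared without such a relation. Named members were Robo4, Efnb2, up to 12 per comparison and direction by fold change that passed the threshold, reached 1 RPKM and did not overlap, the leading member of each family and group, and those past the threshold in the organ difference. Other members named as not called or low were chosen with their values seen. Members and lists were chosen with earlier results of these data known.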

Additional observations from a re-analysis of the deposited data

Results flagged for a closer look

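The endothelial fold change differed between forebrain and kidney for 29 members at an adjusted p below 0.001 (edgeR's quasi-likelihood interaction test). Each value is the log2 fold change in brain minus that in kidney, so that a negative value marks a larger endothelial fold change in kidney. The 10 endothelial markers had differences of 1.41 to 1.90 and the median over all rows was 0.15. Each value includes the difference between the organ translatomes, in which 8 of these markers were lower in brain (median -1.19 over the 10).

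Opposite directions in the 2 organs, lower in brain EC and higher in kidney EC, were called for Robo3 (-5.33), Ephb1 (-3.33), Sema5b (-3.34), Sema6b (-3.16) and Ntn4 (-2.11). Epha1 moved the other way (3.07), higher in brain EC and lower in kidney EC, with means of 0.302 RPKM in brain EC and 0.149 RPKM in the brain translatome. In kidney EC alone, Sema4c (-1.77), Plxna2 (-1.36) and Efnb2 (-1.15) were higher. Sema3d (2.07) was higher in brain EC alone.

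Members that rose in both organs and rose further in brain were Epha2 (2.63), Sema3g (2.25), Efna1 (1.92), Ephb4 (1.80), Robo4 (1.61), Unc5b (1.31), Plxnd1 (1.05) and Sema6a (0.89). Among members that were higher in neither endothelial group, Efna4 (0.74), Slit2 (0.95), Ntn1 (1.19), Ephb2 (1.26), Ntn3 (1.28), Epha8 (1.39) and Sema3b (1.66) had the higher log2 fold change in brain, and Sema6c (-0.85), Epha3 (-0.85), Epha4 (-0.82) and Efna3 (-0.81) the higher one in kidney. Efna3 lost the call when brain translatome replicate 1 or 3 or kidney translatome replicate 2 was left out and with the replicate block, and Ntn1 lost it without brain translatome replicate 1.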

How the results depend on the processing

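The 186 values of named members counted here all passed the threshold in the main fit. Of these, 168 kept their direction and their side of the threshold under every alternative, and none of 2444 refits reversed a direction. That selection makes a reversal unlikely. Values that were not called were left out, such as Efnb2 in brain EC, whose fitted value changed sign. Counts of members moved by more than 1.5 times in these cases. The shares of all rows called under these alternatives are not given here, so the counts lack a background. At an adjusted p below 0.05, members lower in brain EC than in kidney EC were 27, those higher in the brain translatome than in total RNA 16, those higher and lower in the kidney translatome 20 and 19, and those with a higher endothelial fold change in brain 26. In the fit of all 21 libraries, 10 members were higher in the Emx1-lineage, 13 lower in the brain translatome than in total RNA and 14 higher in the kidney translatome. With DESeq2 the last count was 15, and with the replicate block 22 were higher and 18 lower in kidney. Within 1 lane, an alternative chosen after seeing the data, 4 were lower in kidney, where Epha2, Epha4, Epha7, Sema6b and Slit1 lost their calls, as did Sema6a, Sema7a and Unc5b in brain. The causes were not tested. In the block, Efna3 lost its organ difference and no other named call was lost. In the comparisons of endothelial groups with their organs and in the Emx1-lineage the numbers did not pair the samples. Between organs they did so only in part, and the block left 34 members higher and 23 lower there. Leaving out 1 library gave 10 to 13 members higher and 29 to 37 lower in brain EC, 18 and 27 to 35 in kidney EC, 25 to 26 and 14 to 19 between them, 17 to 19 and 18 in the Emx1-lineage, 32 to 34 and 21 to 23 between organs, 7 to 8 and 16 to 21 for ribosome-bound RNA in brain, 7 to 9 and 7 to 8 in kidney, and 16 to 18 and 11 to 13 in the organ difference. Calls lost in this way were Sema3d in brain EC, Sema5a (without brain EC replicate 1, -0.92) between the endothelial groups, Slit3 (without brain translatome replicate 1 or Emx1-lineage replicate 3) and Sema3b (without brain translatome replicate 1, -0.84) in the Emx1-lineage, and Sema6a, Sema7a, Unc5b, Sema6b and Epha7 for ribosome-bound RNA. The fit of all libraries lost Plxna4, Sema3c, Slit3 and Unc5a in the Emx1-lineage. Total counts as the scale moved the share of higher among all called rows from 53.7% to 36.1% in brain EC, from 52.7% to 21.7% in kidney EC and from 41.7% to 29.9% in the Emx1-lineage, and that of called members from 25.5% to 20.4% and from 34.6% to 29.8% in the endothelial comparisons. Members under 1 RPKM are limited by depth.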
